A study of Homo sapiens with 6 samples.

Results

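Integrins are the main receptors that anchor cells to the surrounding matrix, and each is a dimer of an alpha and a beta subunit. Laminins are the large cross-shaped proteins of basement membranes, each built from an alpha, a beta and a gamma chain, and several integrins bind them. Astrocytes and glioma cells carry both, and glioma cells move along laminin-rich vessel walls. The probe sets described here are those whose only platform gene symbol names an integrin alpha or beta subunit or a laminin chain. They number 49 of 12558 probe sets on the array outside its controls, and they stand for 33 genes: 17 integrin alpha subunits, 7 integrin beta subunits and 9 laminin chains. The rule for members used gene names alone, but it was set with earlier results of these data known.

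The messenger RNA of U373, an established human glioblastoma line, was measured on 6 Affymetrix U95 Av2 arrays, with 1 array per condition. Of the transfected arrays, 2 came from syk-transfected cells given 10 µM ponasterone A (PonA) in ethanol, at day 1 and at day 2. The other transfected arrays came from cells given ethanol alone at day 1 and from untreated cells at day 1 and at day 2. The sixth came from untransfected, untreated cells at day 1. PonA is the insect steroid that turns on a gene placed under an ecdysone-inducible promoter, and per the labels the syk construct was used in such a system. Treatment times of 6 to 48 hours are stated for all arrays together, which leaves the hours behind each day unknown, and the sources used here do not say whether the transfected line is 1 clone. No untransfected cells received PonA, and day 2 had no ethanol array.

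Values are MAS5 signal, the Affymetrix summary of a probe set, on arrays that the authors had scaled alike. A signal under the 40th percentile of its array, which lay between 22.7 and 26.5 units, was treated as that percentile and is called under the floor. Array pairs correlated at a Pearson r of 0.946 to 0.985 over all 12558 probe sets. The geometric mean of 7 spike-in probe sets was 445 and 316 with PonA at day 1 and day 2, 234 with ethanol, 426 and 365 in untreated transfected cells at day 1 and day 2, and 137 in untransfected cells. Of 3 SYK probe sets the one that followed PonA gave 39.1 and 72.5 units with PonA at day 1 and day 2, and at most 22.2 on any other array. A second gave 56.3 and 35.2 with PonA at day 1 and day 2, against 64.1 with ethanol, 73.1 and 22.0 in untreated transfected cells at day 1 and day 2, and 31.0 in untransfected cells, so it did not separate them, and the third was under the floor throughout. Of 11 glial marker genes 7 were above the floor on all 6 arrays and AQP4 on none, with summed signals of 11674 and 12197 on the PonA arrays, 11481 to 12741 on the other transfected arrays and 13671 on the untransfected array. VIM had the largest signal of the list on every array, at 4919 to 6458 units. Within the list SLC1A3, a glutamate transporter of astrocytes, was at 193 and 225 units with PonA at day 1 and day 2. SLC1A3 gave 22.8 to 38.8 on the PonA-free transfected arrays and 82.0 in untransfected cells, and its part in the results was not tested. Of 8 haematopoietic marker genes PTPRC, CD14, CD3D and SPI1 were under the floor on all arrays, CD79A passed it on 1, and CD3E, HBB and CD68 were above it on all 6, at 58.7 to 83.2, 27.8 to 44.0 and 145 to 226 units.

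The integrin and laminin genes that this line expressed were a subset. Of the 49 probe sets, 24 were above the floor on all 6 arrays and 12 on none. Under the floor everywhere were both probe sets of the collagen receptor subunit ITGA2, both of ITGA9, and those of ITGA8, the leukocyte subunits ITGAL, ITGAM and ITGB2, and the laminin chains LAMA1 and LAMB4, as well as the dimmer probe sets of ITGA1 and ITGB1. The brighter ITGA1 probe set passed the floor only with ethanol, at 30 units, and LAMA2, the alpha chain of muscle and nerve laminin, only in untransfected cells, at 36.9 units. These 14 probe sets passed the floor on fewer than 2 transfected arrays and were not tested. The other 35, for 23 genes, were.

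The effect of PonA over both days was fitted with limma, with terms for PonA and day over the 5 transfected arrays, and p was adjusted by Benjamini-Hochberg over all 7934 probe sets tested. Called means an adjusted p under 0.05. The fit leaves 2 residual degrees of freedom, the ethanol difference at day 1 and the difference of the PonA effects between the days. To these limma adds 4.48 prior degrees of freedom from the spread pooled over all tested probe sets. No repeated culture enters the fit, so its p-values do not measure the spread between cultures. The fit has no ethanol term. Both PonA arrays also received ethanol and only 1 PonA-free array did, so the fitted PonA effect can hold part of an ethanol effect. At day 2, with no ethanol array, PonA and ethanol cannot be told apart. In these bulk samples a change in the share of cells that carry a transcript and a change per cell cannot be told apart.

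Against this spread 3 of the 35 tested member probe sets rose with PonA and none fell: the laminin receptor subunit ITGA7, the laminin chain LAMB1 and 1 of 3 probe sets of ITGAV, the alpha subunit of vitronectin and fibronectin receptors. Over all tested probe sets 2.70% rose and 2.37% fell. At least 2-fold higher with PonA against ethanol at day 1, untreated at day 1 and untreated at day 2 were 2 of the 35, ITGA7 and LAMB1, against 1.26% of all tested probe sets, and none was as far lower in all 3, against 1.30%. Without the ethanol array 7 member probe sets and 725 of all probe sets were called, and without the untreated array of day 1 there were 6 and 516, against 402 of all with every array. Without each of the other 3 arrays 2 members were called, and 111 to 202 of all. The count at an unadjusted p under 0.05 was 16 of 35 members and 1548 of 7934 probe sets.

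**Figure D1:**
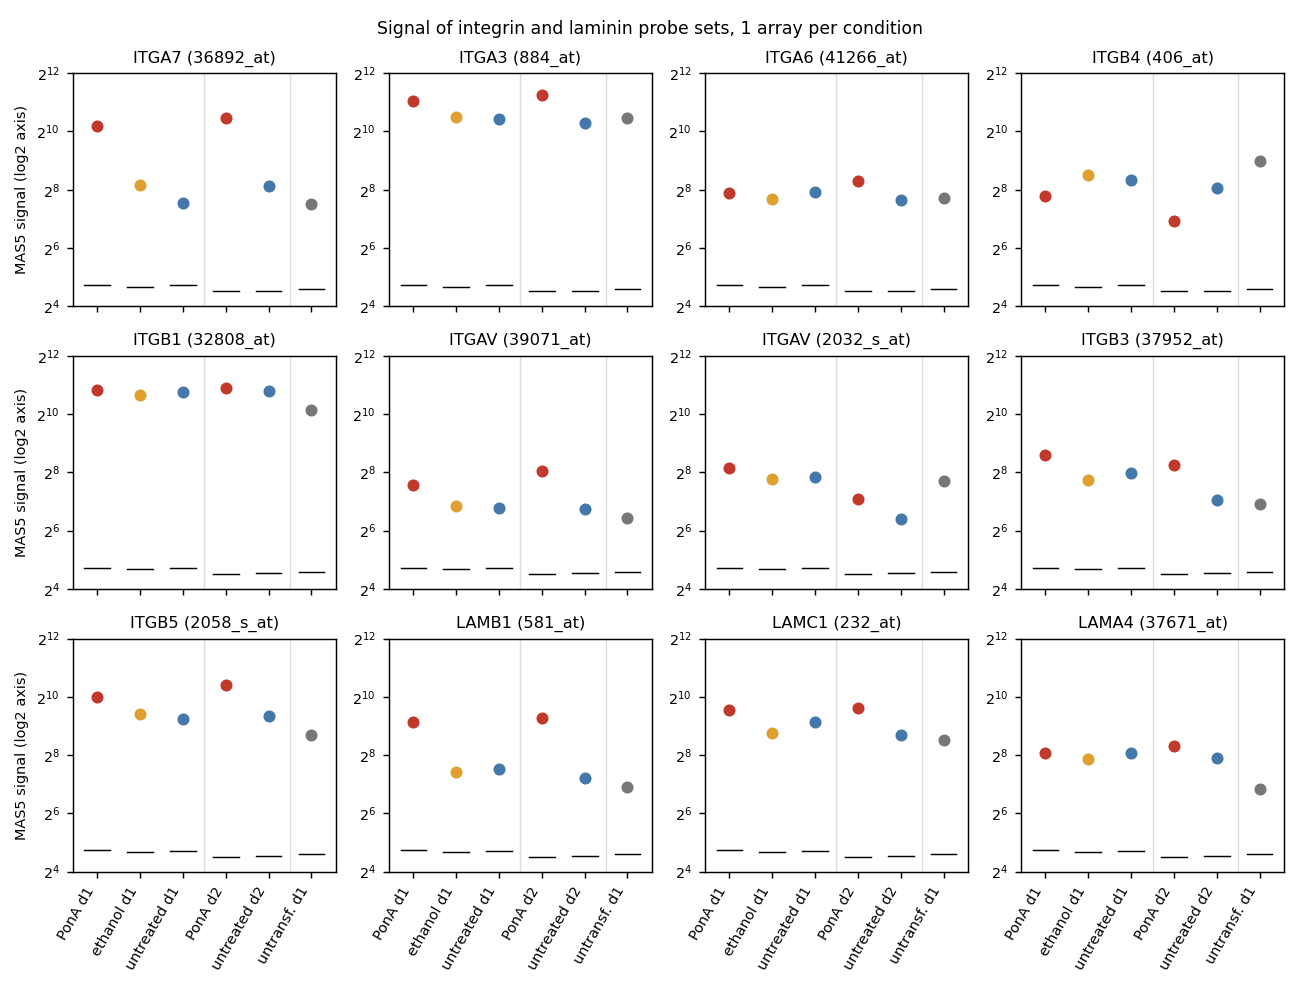
MAS5 signal (log2 axis) of 12 member probe sets on each of the 6 arrays, with 1 point per array and a short black line at that array's floor; d1 and d2 are day 1 and day 2, and untransf. is the untransfected array. ITGA7 and LAMB1 stood apart on both PonA arrays (1156 and 1397 units for ITGA7, 565 and 625 for LAMB1), while ITGB1 stayed between 1626 and 1913 on the transfected arrays.

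The laminin receptors were read first. ITGA7 encodes the alpha subunit that, with beta 1, binds laminin in muscle. Its probe set 36892_at gave 1156 units under PonA and 286 under ethanol at day 1, with 186 in untreated cells, while day 2 gave 1397 under PonA and 281 in untreated cells. Untransfected cells gave 184. Both PonA arrays lay far above all others, and the ethanol array and the untreated array of day 2 lay somewhat above the other pair. The difference was 4.05-fold over ethanol and 6.21-fold over untreated cells at day 1, and 4.97-fold over untreated cells at day 2. The fitted log2 effect was 2.32 ± 0.23 (SE, limma adjusted p = 0.00463), with a 95% interval of 1.77 to 2.87. At day 1 the ethanol array itself was 1.54-fold above the untreated one. Left out in turn, each array gave a log2 effect of ITGA7 between 2.16 and 2.47, called each time.

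ITGA3, the alpha subunit of the receptor for laminins of epithelial and vascular basement membranes, had smaller differences that pointed the same way. Its probe set 884_at gave 2118 units under PonA and 1450 under ethanol at day 1, with 1393 in untreated cells, while day 2 gave 2415 under PonA and 1264 in untreated cells. Untransfected cells gave 1411, inside the range of the PonA-free arrays. The PonA arrays did not overlap the others, and the log2 effect was 0.73 ± 0.18 (SE, limma adjusted p = 0.0746), which was not called. The second probe set, 885_g_at, with an effect of 0.66 ± 0.17 and both PonA arrays above the rest (limma adjusted p = 0.0830), was not called either.

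ITGA6, the third laminin-binding alpha subunit and a marker of stem-like glioma cells, showed no such order. Its brightest probe set, 41266_at, gave 236 units under PonA and 204 under ethanol at day 1, with 241 in untreated cells, while day 2 gave 318 under PonA and 200 in untreated cells. The log2 effect was 0.34 ± 0.21 (SE, limma adjusted p = 0.443), with a 95% interval of -0.16 to 0.84, so a rise of the size of ITGA3 stays within it. The other 3 ITGA6 probe sets had effects of 0.01, -0.10 and 0.04, with signals of at most 43.5 units.

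ITGB4, the beta subunit that pairs only with ITGA6 and ties laminin to the keratin skeleton, had the lowest effect among the tested members. Probe set 406_at gave 223 units under PonA and 365 under ethanol at day 1, with 324 in untreated cells, while day 2 gave 122 under PonA and 267 in untreated cells. The untransfected array had the highest value, at 512. Both PonA arrays lay under all PonA-free arrays, 2.19-fold lower than untreated cells at day 2, and the log2 effect was -0.84 ± 0.20 (SE, limma adjusted p = 0.0647), not called. It was called without the ethanol array (adjusted p = 0.0494) and without the untreated array of day 1 (adjusted p = 0.0402). Both of these fits also called more of all probe sets than the main fit. With any other single array left out ITGB4 406_at was not called, at log2 effects of -1.13 to -0.63. The dimmer ITGB4 probe set 38746_at gave 14.0 and 8.85 with PonA at day 1 and day 2, both under the floor, against 68.7 with ethanol and 65.8 untreated at day 1, but untreated cells at day 2 gave 13.4, which is below the floor too. At day 1 it was at least 2.59-fold lower with PonA than with ethanol and at least 2.49-fold lower than untreated. Of 7 epithelial marker genes 4 (EPCAM, KRT19, KRT5 and KRT14) were under the floor on all arrays, and the summed signal of the 7 was 537 to 603 on the PonA arrays, 622 to 664 on the PonA-free transfected arrays and 694 on the untransfected array. The sum is mostly KRT8, while KRT18 was at 62.1 and 49.95 with PonA at day 1 and day 2, against 59.1 to 82.3 on the PonA-free transfected arrays, and CDH1 passed the floor only with PonA at day 2, at 33.7. Their part in the ITGB4 values was not tested.

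ITGB1 is the shared beta subunit of most laminin, collagen and fibronectin receptors, ITGA7 and ITGA3 included. Its probe set 32808_at gave 1836 units under PonA and 1626 under ethanol at day 1, with 1752 in untreated cells, while day 2 gave 1913 under PonA and 1766 in untreated cells. The 5 transfected arrays thus lay close together, with both PonA arrays on top by a small margin. The log2 effect was 0.12 ± 0.17 (SE, limma adjusted p = 0.761), with a 95% interval of -0.28 to 0.51, which lies below the interval of ITGA7. Untransfected cells were lower, at 1119 units.

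Laminin chains were read by 9 probe sets, of which 6 were tested. LAMB1 encodes the beta chain found in most laminins of vessels and brain. It gave 565 units under PonA and 173 under ethanol at day 1, with 183 in untreated cells, while day 2 gave 625 under PonA and 148 in untreated cells. The untransfected array gave 120, the lowest of the 6. The PonA arrays were 3.27-fold above ethanol and 3.09-fold above untreated cells at day 1, and 4.22-fold above untreated cells at day 2, while ethanol and untreated cells at day 1 were within 1.06-fold of each other. The log2 effect was 1.84 ± 0.18 (SE, limma adjusted p = 0.00465, 95% interval 1.41 to 2.28). Left out in turn, each array gave a LAMB1 effect between 1.67 and 2.08 that was called. The summed signal of 4 endothelial marker genes was also higher with PonA, at 67.0 to 110, against 49.3 to 65.7 on the PonA-free transfected arrays. Of these, TEK was at 61.0 and 44.6 with PonA at day 1 and day 2 against at most 21.9 on the other arrays. PECAM1 was at 37.6 and 15.5 with PonA, against 19.5 to 47.3 on the PonA-free transfected arrays, and CDH5 and VWF were under the floor on all 6. Their part in the LAMB1 values was not tested.

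The promoter of LAMB1, from 250 bases before to 50 bases after the gene start, is shown because it is the laminin gene that rose, beside that of ITGAV at its first listed start, whose probe sets disagreed. Sequences are from RefSeq, build GRCh38.p14, read 5′ to 3′ along the gene, at chr7:108003112-108003411 on the minus strand for LAMB1 and chr2:186589806-186590105 on the plus strand for ITGAV. Capitals mark matches to 4 motifs that were searched on both strands. The first was the AP-1 site, written TGANTCA, and the second was the GC box, written GGGCGG. The third was the TATA box, written TATAAA, and the fourth was the half-site of many nuclear receptors, written AGGTCA.
LAMB1: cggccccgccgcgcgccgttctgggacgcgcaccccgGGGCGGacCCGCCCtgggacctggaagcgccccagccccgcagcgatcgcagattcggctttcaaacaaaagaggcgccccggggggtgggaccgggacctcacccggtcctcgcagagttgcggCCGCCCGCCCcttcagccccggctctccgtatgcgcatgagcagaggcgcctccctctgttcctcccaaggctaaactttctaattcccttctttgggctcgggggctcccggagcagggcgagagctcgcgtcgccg
ITGAV: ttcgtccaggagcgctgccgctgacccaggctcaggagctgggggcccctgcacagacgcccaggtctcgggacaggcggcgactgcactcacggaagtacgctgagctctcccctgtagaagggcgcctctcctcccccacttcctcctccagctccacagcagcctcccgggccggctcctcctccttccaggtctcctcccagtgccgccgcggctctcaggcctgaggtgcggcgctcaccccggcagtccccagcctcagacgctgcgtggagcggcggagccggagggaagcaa
LAMB1 held 4 GC boxes, at positions 38, 46, 163 and 167 of the 300 bases, the last pair overlapping, and no match to the other motifs. The ITGAV window held none of the 4, and the window at the second listed ITGAV start, chr2:186599955-186600254, held 1 nuclear receptor half-site at position 199. GC boxes were present in 44.95% of 35093 promoters in the table, AP-1 sites in 7.71%, TATA boxes in 11.5% and the half-site in 13.8%. Of the 33 member genes 23 matched the table, with 30 promoters, of which 18 held a GC box and 2 each held the other 3 motifs. ITGA7 had no match, so its promoter is not shown. A match of letters is a description and not evidence of binding.

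LAMC1, the gamma chain that joins LAMB1 in most laminins, gave 750 units under PonA and 435 under ethanol at day 1, with 564 in untreated cells, while day 2 gave 794 under PonA and 414 in untreated cells. Both PonA values exceeded all PonA-free values, and the untransfected array was lowest at 363. The log2 effect was 0.75 ± 0.20 (SE, limma adjusted p = 0.0966), and it was not called. Without the untreated array of day 1 it was called (adjusted p = 0.0431). With any other single array left out it was not called, at log2 effects of 0.60 to 0.94.

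LAMA4, the alpha chain of vessel-wall laminin, had its lowest signal by far without transfection. It gave 272 units under PonA and 231 under ethanol at day 1, with 269 in untreated cells, while day 2 gave 316 under PonA and 237 in untreated cells, a log2 PonA effect of 0.25 ± 0.18 (SE, limma adjusted p = 0.526). Untransfected cells gave 114. LAMA5, the broadly expressed alpha chain, ranged from 130 to 156 over the 6 arrays, with an effect of 0.07 ± 0.17. LAMB2, the alternative to LAMB1 in laminin trimers, gave 176 with PonA on each day, against 232 with ethanol and 203 untreated at day 1 and 176 untreated at day 2, an effect of -0.17 ± 0.18 (SE, limma adjusted p = 0.667) with a 95% interval of -0.60 to 0.26, below that of LAMB1. LAMB3, a chain of epithelial laminin, gave 148 under PonA and 117 under ethanol at day 1, with 75.2 in untreated cells, while day 2 gave 124 under PonA and 103 in untreated cells, with an effect of 0.49 ± 0.24 (SE, limma adjusted p = 0.342).

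**Figure D2:**
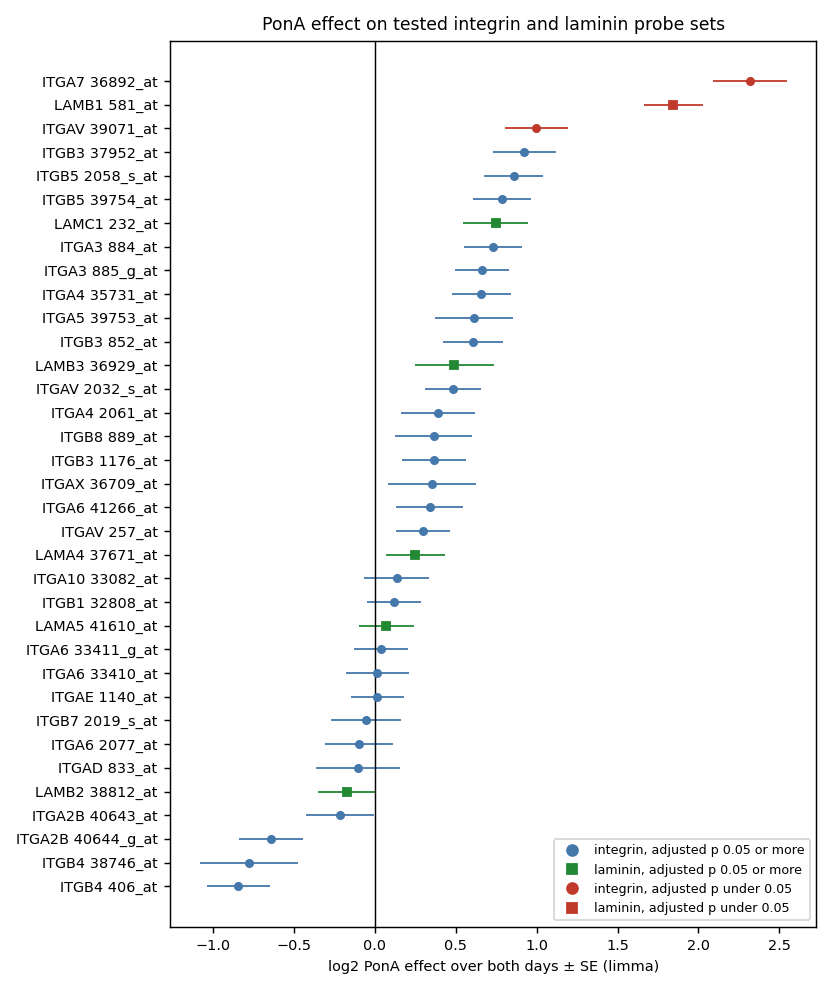
Log2 PonA effect over both days ± SE from limma for the 35 tested member probe sets, with circles for integrins and squares for laminin chains, and red for an adjusted p under 0.05. Effects ran from -0.84 (ITGB4, 406_at) to 2.32 (ITGA7), and 3 probe sets were called, all higher with PonA.

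Among the receptors that recognise the RGD peptide of fibronectin and vitronectin, ITGAV and its partners ITGB3 and ITGB5 were higher with PonA on both days, most of them short of the threshold. ITGAV probe set 39071_at gave 191 units under PonA and 114 under ethanol at day 1, with 109 in untreated cells, while day 2 gave 265 under PonA and 108 in untreated cells. Untransfected cells gave 85.8. The 3 PonA-free transfected arrays were nearly level, with both PonA arrays above them, and the log2 effect was 1.00 ± 0.19 (SE, limma adjusted p = 0.0392). That call was lost without the PonA array of day 1 (adjusted p = 0.0897), the untreated array of day 2 (adjusted p = 0.272) or the PonA array of day 2 (adjusted p = 0.293).

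The brighter ITGAV probe set, 2032_s_at, stands for the gene by the rule on mean signal and behaved otherwise. It gave 286 under PonA and 218 under ethanol at day 1, with 232 in untreated cells, while day 2 gave 135 under PonA and 85.2 in untreated cells. It differed more between the days than with PonA: the PonA arrays differed 2.12-fold and the untreated arrays 2.72-fold between the days, lower at day 2 in both cases, and the groups overlapped. Its log2 PonA effect was 0.48 ± 0.18 (SE, limma adjusted p = 0.197). The suffix _s_at marks probes that can match more than one transcript. The third ITGAV probe set, 257_at, was above the floor only on the PonA arrays, at 29.9 and 30.8 units.

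ITGB3 encodes the partner of ITGAV in the vitronectin receptor of migrating and vascular cells. Probe set 37952_at gave 386 units under PonA and 215 under ethanol at day 1, with 253 in untreated cells, while day 2 gave 304 under PonA and 134 in untreated cells. Untransfected cells were at 120. The PonA arrays lay above all others, and the log2 effect of 0.92 ± 0.19 (SE, limma adjusted p = 0.0507) just missed the threshold. It passed without the ethanol array (adjusted p = 0.0374) and without the untreated array of day 1 (adjusted p = 0.0256). With any other single array left out it was not called, at log2 effects of 0.73 to 1.18. The other 2 ITGB3 probe sets had effects of 0.61 ± 0.18 and 0.36 ± 0.20 with the same order of PonA and PonA-free arrays.

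ITGB5, another partner of ITGAV, was read by 2 bright probe sets that gave like answers. Probe set 2058_s_at gave 1030 units under PonA and 678 under ethanol at day 1, with 607 in untreated cells, while day 2 gave 1367 under PonA and 643 in untreated cells, and untransfected cells gave 410. Probe set 39754_at gave 790 under PonA and 520 under ethanol at day 1, with 430 in untreated cells, while day 2 gave 1059 under PonA and 589 in untreated cells, and untransfected cells gave 277. On both, PonA arrays came first, PonA-free transfected arrays next and the untransfected array last. The effects of 0.86 ± 0.19 (SE, limma adjusted p = 0.0544) and 0.79 ± 0.18 (SE, limma adjusted p = 0.0619) were not called, though without the ethanol array both were (adjusted p = 0.0255 and 0.0299). With any other single array left out neither was called, at log2 effects of 0.68 to 1.09 and 0.72 to 0.85.

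ITGA5, the alpha subunit of the classical fibronectin receptor, differed with ethanol as well. It gave 330 units under PonA and 310 under ethanol at day 1, with 216 in untreated cells, while day 2 gave 242 under PonA and 125 in untreated cells, and untransfected cells gave 142. PonA was thus 1.06-fold above ethanol but 1.53-fold above untreated cells at day 1, the groups overlapped, and the effect was 0.61 ± 0.24 (SE, limma adjusted p = 0.233). ITGB8, a partner of ITGAV in astrocytes that activates TGF-beta, lay near the floor, at 31.9 and 39.3 with PonA at day 1 and day 2 against 18.1 to 35.3 on the PonA-free transfected arrays. ITGA2B, the platelet subunit, had probe set effects of -0.22 ± 0.21 and -0.64 ± 0.20, neither called.

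Of the remaining integrins, ITGA4, the alpha subunit that binds VCAM1 and fibronectin, stayed low, with 47.1 and 41.8 units with PonA at day 1 and day 2 against 23.2 to 35.5 on the PonA-free transfected arrays for probe set 35731_at, and an effect of 0.66 ± 0.18 (SE, limma adjusted p = 0.106). Its second probe set had an effect of 0.39 ± 0.23. ITGAE, a subunit known from lymphocytes in epithelia, was level on all 6 arrays at 204 to 234 units, with an effect of 0.01 ± 0.17. The other tested members, ITGAX, ITGAD and ITGB7 of leukocytes and the collagen receptor subunit ITGA10, had effects between -0.11 and 0.35, and none was called.

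Counted by direction, 27 of the 35 tested probe sets had a positive PonA effect, against 4030 of all 7934, with medians of 0.35 and 0.01 on the log2 scale. Several genes are counted by more than 1 probe set. By the brightest probe set of each gene, 18 of 23 member genes were positive, against 2907 of all 5718. These counts describe the tested probe sets and not all members: ITGAV 257_at passed the floor only through the PonA arrays and ITGB4 38746_at only through PonA-free ones. Higher in all 3 PonA comparisons, whatever the size, were 19 of the 35, against 24.9% of all tested probe sets, and lower in all 3 were 3, against 23.3%. The 3 were ITGB4 406_at, ITGA2B 40644_g_at and LAMB2, which gave 176 units at day 2 in both PonA-treated and untreated cells. The comparisons at day 1 share their PonA array, so they are not independent.

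Partner chains were set side by side by fixed lists of dimers, trimers and receptor-ligand pairs, taking the brightest probe set of each gene. Of 14 integrin dimers with both subunits tested, 7 had both subunits higher in all 3 PonA comparisons: ITGB1 with ITGA3, ITGA4, ITGA5, ITGA7 or ITGAV, and ITGAV with ITGB3 or ITGB5. In no dimer were both lower, and the other 7 went different ways or had no settled direction, ITGA6 with ITGB4 among them. These pairs share subunits, so they are not separate observations, and ITGB1 enters 5 of the 7 with a log2 effect of 0.12. ITGAV enters by probe set 2032_s_at, whose effect was 0.48 and whose PonA and PonA-free arrays overlapped. For ITGA5 they overlapped too, and PonA was only 1.06-fold above ethanol at day 1. Of 4 laminin trimers with all chains tested, 1 was higher throughout, LAMA4 with LAMB1 and LAMC1, known as laminin-411, with effects of 0.25, 1.84 and 0.75. For LAMA4 this rests on a near tie, since PonA was only 1.01-fold above untreated cells at day 1.

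Receptor and ligand met in the same way. Of 30 pairs of a laminin-binding subunit and a laminin chain with both tested, 12 were higher in all 3 comparisons, 1 was lower and 17 were mixed. The 12 were ITGA3, ITGA7 or ITGB1 with LAMA4, LAMB1, LAMB3 or LAMC1, and the lower pair was ITGB4 with LAMB2. Each subunit was crossed with each chain, so the pairs are not separate observations and add nothing to the single genes. Among the 12, ITGB1 and LAMA4 entered with log2 effects of only 0.12 and 0.25. The pair with both genes called was ITGA7 and LAMB1. With PonA at day 1 these were 4.05-fold and 3.27-fold above ethanol, and at day 2 they were 4.97-fold and 4.22-fold above untreated cells. LAMA2, whose laminin is a known ligand of ITGA7 in muscle, was under the floor on every transfected array.

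**Figure D3:**
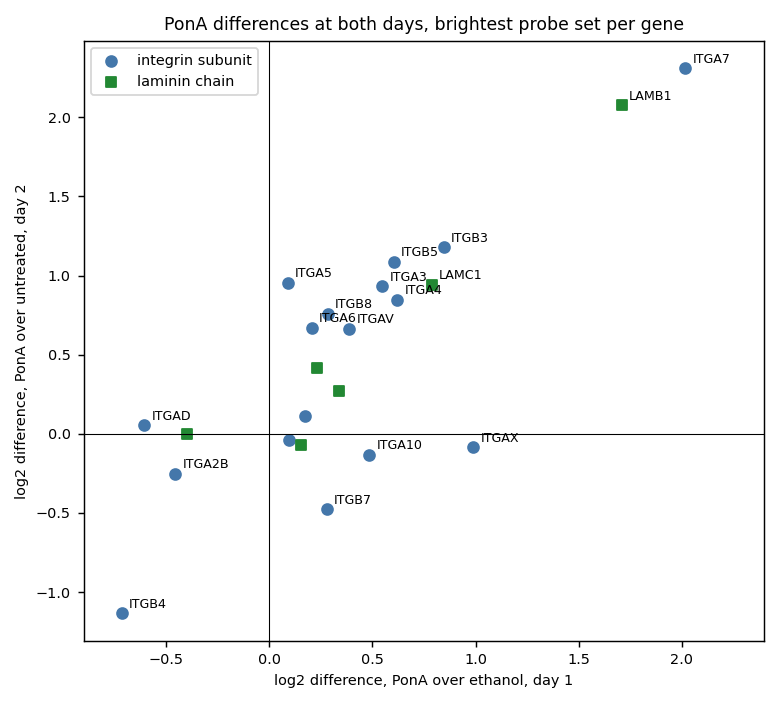
Log2 differences of PonA over ethanol at day 1 (x axis) and of PonA over untreated cells at day 2 (y axis), which share no array, for the brightest probe set of each of the 23 tested genes. ITGA7 (2.02 and 2.31) and LAMB1 (1.71 and 2.08) lay apart at the upper right, and ITGB4 (-0.71 and -1.13) at the lower left.

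The days were compared next. At least 2-fold apart either way between PonA and ethanol at day 1 were 3 of 36 member probe sets above the floor on 1 side, ITGA7, LAMB1 and ITGB4 38746_at, against 5.62% of all such probe sets, and the same 3 were so between PonA and untreated cells at day 1, against 6.71%. At day 2 PonA and untreated cells differed that far for 6 of 32, against 8.71%: ITGA7, LAMB1, ITGAV 39071_at at 2.46-fold, ITGB3 37952_at at 2.27-fold and ITGB5 2058_s_at at 2.13-fold were higher, and ITGB4 406_at was lower. Differences between 1 array and 1 array have no replicate check. A PonA-by-day term in limma, with 1 residual degree of freedom, called none of the 35 members and 0% of all 7934 probe sets, with 1 member and 330 probe sets at an unadjusted p under 0.05. That member was ITGB4 38746_at, with a term of 1.31 on the log2 scale (limma unadjusted p = 0.0124), and at day 2 it was under the floor with and without PonA. The terms of ITGA7 and LAMB1 were -0.01 and 0.41.

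Between the days without a change of treatment, 2 of 33 member probe sets were 2-fold apart in untreated transfected cells, ITGAV 2032_s_at and ITGB4 38746_at, both lower at day 2, against 3.19% of all. In PonA-treated cells 1 of 34 was, again ITGAV 2032_s_at, against 2.93%. Ethanol against no treatment at day 1 separated none of 34 member probe sets by 2-fold, against 2.18% of all. The largest was ITGAD at 1.69-fold, near the floor, followed by LAMB3 at 1.55-fold and ITGA7 at 1.54-fold.

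Transfection itself was read against a single untransfected array. Untreated transfected cells at day 1 were 2-fold or more from it for 3 of 34 member probe sets, all higher, against 5.72% of all: LAMA4 at 2.37-fold, ITGB3 37952_at at 2.10-fold and the dimmer ITGA2B probe set at no less than 2.32-fold. When all 3 PonA-free transfected arrays had to lie 2-fold to the same side, 1 of 30 remained, LAMA4, against 2.19%. LAMA4 was 2.04-fold higher with ethanol, 2.37-fold higher untreated at day 1 and 2.09-fold higher untreated at day 2 than in untransfected cells, so all 3 values lay near the limit. ITGB5 39754_at was 1.88-fold, 1.55-fold and 2.12-fold higher on the same arrays, and ITGB1 32808_at 1.45-fold, 1.57-fold and 1.58-fold. ITGB4 406_at was 1.40-fold, 1.58-fold and 1.92-fold lower. The astrocyte filament gene GFAP moved with the same contrast, at 103 to 221 units on the PonA-free transfected arrays against 1533 on the untransfected array, and the spike-in mean was lowest on the untransfected array; their part in these differences was not tested.

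**Figure D4:**
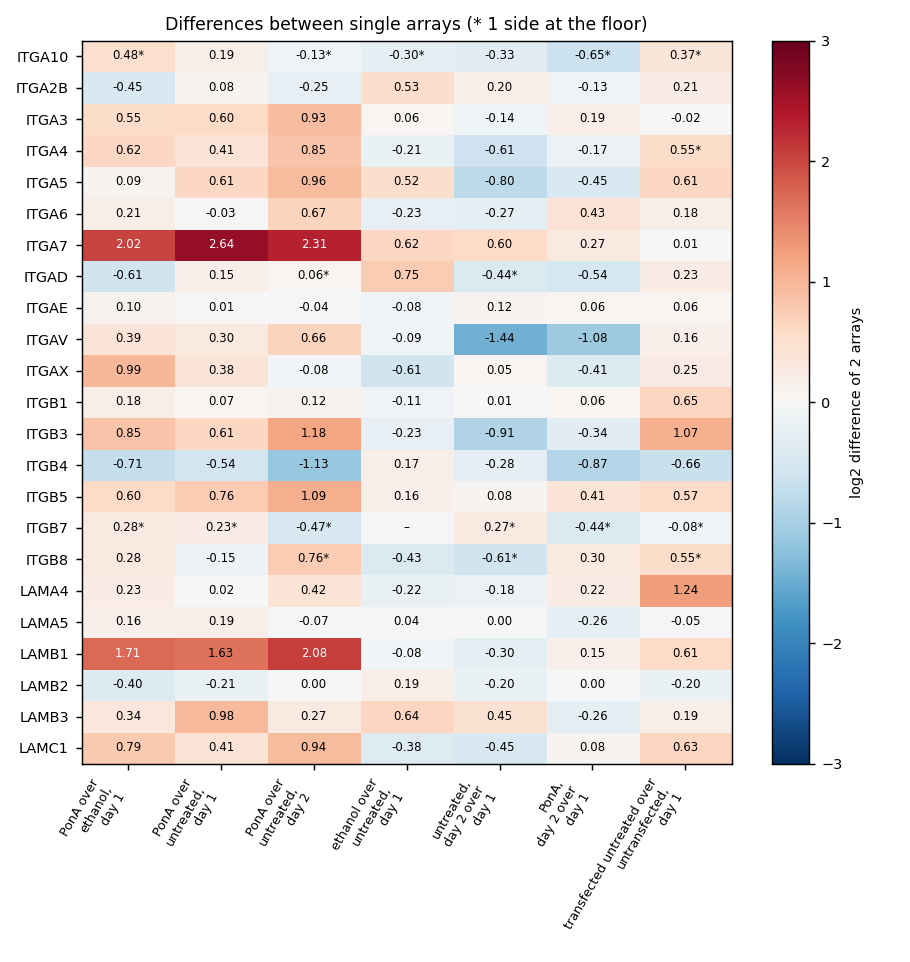
Log2 difference between 2 single arrays in 7 comparisons (columns) for the brightest probe set of each of the 23 tested member genes (rows), red for higher and blue for lower in the condition named first. An asterisk marks a difference with 1 side at the floor and a dash 1 with both sides under it; ITGA7 and LAMB1 were at 1.63 or more in the 3 PonA columns, and LAMA4 was at 1.24 in the last column.

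Genes around these receptors were taken from 4 lists, chosen with earlier results of these data known. They were read in the same limma fit, by the brightest probe set of each gene. Over all 5718 genes tested 2.66% rose and 2.33% fell by that measure, against which the small counts that follow are to be read. Of 25 tested genes of the adhesion complex inside the cell 1 rose and none fell, with a median log2 effect of 0.15. It was FERMT2, which encodes kindlin-2, an integrin activator, at 460 and 602 units with PonA at day 1 and day 2, against 181 with ethanol and 268 and 250 in untreated cells at day 1 and day 2 (log2 effect 1.15 ± 0.22, limma adjusted p = 0.0390). Untransfected cells gave 330, above the PonA-free transfected arrays. Of 11 other basement membrane genes 2 rose and none fell, with a median of 0.23. Both encode alpha chains of type IV collagen, the network to which laminin is linked. COL4A6 probe set 39939_at gave 121 and 172 units with PonA at day 1 and day 2, against 53.0 with ethanol and 43.7 and 54.0 in untreated cells (log2 effect 1.48 ± 0.19, limma adjusted p = 0.0106), and its second probe set was above the floor with PonA only. On 39939_at untransfected cells gave 96.4, above the PonA-free transfected arrays and below both PonA arrays. COL4A5 gave 142 and 170 with PonA, against 63.6 with ethanol and 54.6 and 70.1 in untreated cells (log2 effect 1.27 ± 0.17, limma adjusted p = 0.0125), and 55.6 in untransfected cells.

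Of 15 integrin ligands other than laminins 1 rose and none fell, with a median of 0.33. It was CCN1, a matrix protein bound by ITGAV and ITGA6 receptors, at 801 and 1119 units with PonA at day 1 and day 2, against 196 with ethanol and 304 and 226 in untreated cells (log2 effect 1.97 ± 0.26, limma adjusted p = 0.0112). Untransfected cells gave 267. Of 15 genes listed as other laminin receptors or integrin partners, not all of them membrane proteins, none was called, with a median of 0.14. The 2 with the smallest adjusted p were ITGB3BP at -0.79 ± 0.17 (limma adjusted p = 0.0544) and the tetraspanin gene CD63 at 0.49 ± 0.18 (limma adjusted p = 0.194). The calls of FERMT2, COL4A5, COL4A6 and CCN1 were each lost without either array of day 2, and those of FERMT2 and COL4A5 also without the PonA array of day 1, with effects of 1.06 or more in all these fits.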

How the data were processed

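The deposited table holds intensity values per probe set, on a linear scale. Per the submitters' processing notes they came from MAS5; the release of that software, the genome build and present or absent calls are not given in the sources used here. The mean signal without the lowest and highest 2% of probe sets was 150.1 on every array, so the authors had scaled the arrays alike, and no further scaling was applied.

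Symbols came from the platform annotation, updated through Entrez identifiers to RefSeq (GRCh38.p14). Of 12558 probe sets, 10943 had a single symbol, for 8226 genes, and 67 controls were left out of tests. The probe set with the highest mean over 6 arrays stands for a gene. Signals under the array's 40th percentile were set to it, log2 was taken, and probe sets above it on at least 2 of the 5 transfected arrays were fitted with limma 3.58.1 (R 4.3.3), with 4.48 prior degrees of freedom. The fit was also run on simulated signals with known changes and independent noise of equal spread. Such signals lack ethanol and culture differences, so that run does not show how its p-values hold on these arrays. With 1 array per group, single-array differences have no p-value and the number of arrays limits the precision. A fold from a floored value is a bound.

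Members with a call, a 2-fold difference, or a partner of such a member were named with values on every array. Named pathway genes were the called members of each list, or else the 2 with the smallest adjusted p. The members ITGA5, ITGA2B, ITGB8, ITGAE and ITGA4 were added after their values were seen. Members and lists were chosen with earlier results of these data known.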

Additional observations from a re-analysis of the deposited data

How the results depend on the processing

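The direction of the PonA effect held under all 14 alternatives for ITGA7, LAMB1, ITGAV 39071_at, ITGB3 37952_at, both ITGB5 probe sets, both ITGA3 probe sets, LAMC1 and ITGB4 406_at. The floor at the 20th percentile, both filter changes, the 6-array fit and the intensity trend left these estimates unchanged, so direction could not change. The 6-array fit, with a transfection term, also repeated the main adjusted p. Leaving out either array of day 2 gave the same estimate. ITGA7 and LAMB1 were called in 13 of the 14, the exception being the fit with no filter on low signals (adjusted p = 0.0619 and 0.0558), and ITGAV 39071_at in 9. The 3 member calls became 6 with log2(signal + 16) and no floor, 7 with probe sets above the floor on all 5 arrays, 10 with an intensity trend in eBayes and 0 with no filter, where 12558 probe sets are adjusted for. Leaving out 1 array gave 2 to 7 member calls and 111 to 725 calls over all probe sets. The 402 calls over all probe sets became 107 with a floor at the 20th percentile, 29 with no filter and 625 with the intensity trend.

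Counts of members 2-fold apart depended on the floor. With the floor at the 20th percentile they were 6 for PonA over ethanol at day 1, 5 over untreated at day 1, 11 over untreated at day 2, 1 for ethanol over untreated, 4 for untreated and 4 for PonA-treated cells between the days, 10 for untreated transfected over untransfected cells and 5 with all 3 PonA-free arrays. The shares of all probe sets past that limit were, in the same order, 10.1%, 11.6%, 12.6%, 8.08%, 9.52%, 7.33%, 12.5% and 3.49%, against member shares of 14.6%, 11.9%, 25.0%, 2.38%, 9.09%, 9.30%, 23.3% and 12.2%. At 1.5-fold the member counts were 15, 13, 16, 5, 8, 5, 12 and 4, or 41.7%, 37.1%, 50%, 14.7%, 24.2%, 14.7%, 35.3% and 13.3%, against 17.8%, 21.3%, 24.7%, 13.3%, 16.6%, 15.7%, 21.7% and 7.75% of all probe sets. FERMT2, COL4A5, COL4A6 and CCN1 lost their calls with the floor at the 20th percentile (adjusted p = 0.143, 0.0715, 0.0659 and 0.0701) and with no filter (adjusted p = 0.126, 0.0569, 0.0624 and 0.0866), and FERMT2 also under quantile normalization (adjusted p = 0.0587). The number of arrays limits every value, and low probe sets such as ITGA4, ITGB8 and ITGA10 lay close to the floor.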
